A study of Mus musculus with 9 samples.

Results

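The comparison described here set mouse embryonic stem (ES) cells held undifferentiated against cells of the same study after 3.5 days of differentiation with doxycycline (D3.5 Dox+). It used 2 of the 9 arrays of the series, 1 array for each state. Of 18193 genes with a probe set, the 8716 whose signal reached 50 on 2 or more arrays were kept and are called tested genes. Undifferentiated cells were grown in GMEM with 10% serum replacement, 1% fetal bovine serum, leukemia inhibitory factor (LIF) and 1 µg/ml doxycycline. The D3.5 Dox+ cells had been moved to MEM alpha with 10% fetal bovine serum, without LIF, and kept with 1 µg/ml doxycycline. The other arrays cover 0.5, 1.5 and 2.5 days with doxycycline (D0.5, D1.5 and D2.5 Dox+) and all 4 times without it (Dox-). Per the series design, the drug governs a version of PKA (cyclic AMP-dependent protein kinase) that is always active. Both states compared here were in doxycycline, and the labels do not state whether the drug turns the kinase on or off. The labels name no strain, line or clone. Time, loss of LIF, basal medium and serum all differed between the arrays compared, and their parts cannot be told apart.

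Pluripotency is held in more than one form. Naive ES cells resemble the epiblast before implantation, and LIF, acting through the kinase JAK and the transcription factor STAT3, sustains their specific factors such as Klf4, Esrrb and Tfcp2l1. After implantation the epiblast passes through a formative and then a primed form, in which Pou5f1 (Oct4) is kept, the naive factors are shut off, Otx2, Pou3f1, Fgf5 and Dnmt3b are turned on, and the cells become able to enter the primitive streak, the site where mesoderm and endoderm arise.

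Each state is a single array, so the difference between them has no replicate and no p-value. Differences are on the log2(signal + 16) scale, D3.5 Dox+ minus undifferentiated, and understate the change of dim genes. On that scale 969 genes were at least 2-fold higher on D3.5 Dox+ (11.1% of the 8716) and 553 at least 2-fold lower (6.34%), and 85 and 80 of these were at least 8-fold apart. The difference was under 0.5 for 5161 genes (59.2%), and its median over all tested genes was 0.04. Without the signal filter, 6.37% of the 18193 genes were higher and 4.05% lower, with a median of 0.03, and the counts for gene lists given below are over all members with a probe set and are to be read against these shares. As a yardstick, the D0.5 arrays with and without doxycycline were at least 2-fold apart for 10 genes (0.115%), and 99% of genes lay within 0.60 of each other on them. Between D3.5 Dox+ and undifferentiated cells, 33.8% of genes were further apart than that. The 3'/5' signal ratio of Actb, a sign of RNA integrity, was 1.60 on the undifferentiated array, the lowest of the series, and 1.94 on D3.5 Dox+, within the range of 1.63 to 1.98 of the other differentiating arrays; its part in the differences was not tested. Genes next to the limits show what these mean: Gatm, at 9.0 in undifferentiated cells and 50.0 on D3.5 Dox+, just passed the signal filter, Zkscan1, at 25.7 and 67.4, lay just inside the 2-fold line, and Rbpms, at 321 and 657.7, just outside it.

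**Figure D1:**
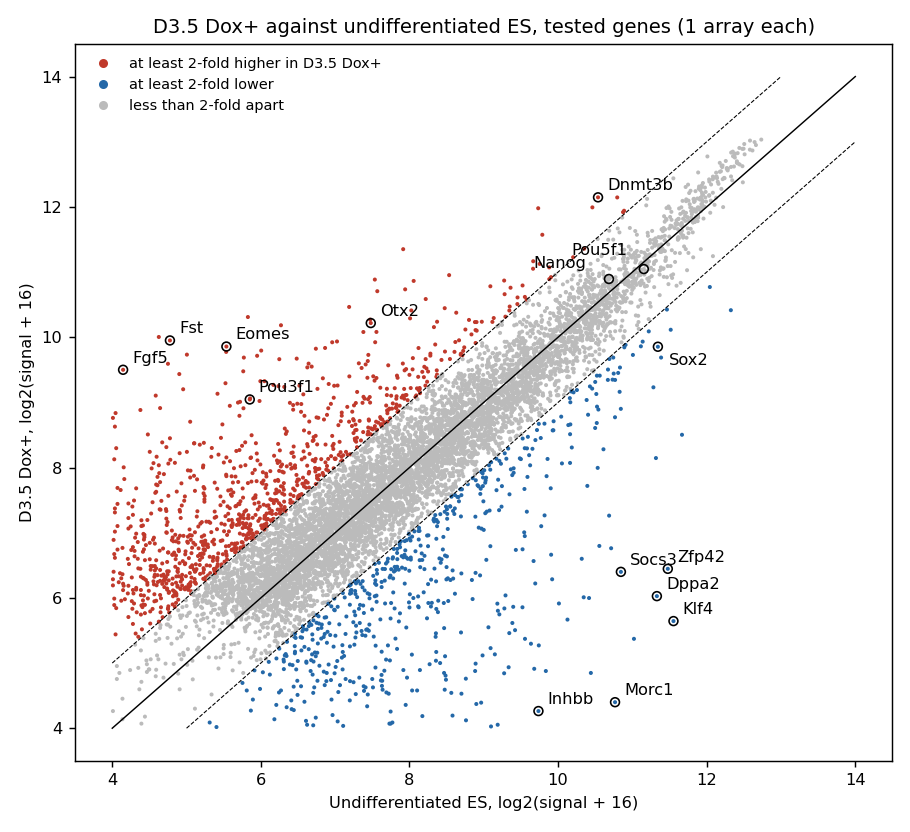
Signal of each tested gene on the undifferentiated array (x axis) and on the D3.5 Dox+ array (y axis), both as log2(signal + 16), with the 969 genes at least 2-fold higher on D3.5 Dox+ in red, the 553 at least 2-fold lower in blue and dashed lines at 2-fold. Pou5f1 and Nanog lie near the diagonal, while Klf4, Zfp42 and Morc1 lie far below it and Fgf5, Fst and Eomes far above.

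The markers of both states went with the labels in part. Pou5f1 had a signal of 2263 in undifferentiated cells and 2099 on D3.5 Dox+, and Nanog had 1629.6 and 1887. Zfp42 (Rex1), a marker of the naive state, was at 2834 and 71.2, and Fgf5, a growth factor of the epiblast after implantation, at 1.7 and 708. Pou5f1 and Nanog were thus alike at both ends, while Zfp42 was lower and Fgf5 higher on D3.5 Dox+. A set of primitive streak genes was also high on the D3.5 Dox+ array, as described below, so that array is not one of epiblast genes alone. In bulk RNA, fewer cells of a kind and less RNA per cell cannot be told apart.

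Among 27 genes of general pluripotency with a probe set, of which 26 were tested, 9 were at least 2-fold lower, 1 was higher and the median was -0.34. Over the arrays with doxycycline, from undifferentiated cells through the 4 days of the course in order, Pou5f1 had 2263, 2724, 2223, 2043 and 2099, a difference of -0.11 between the ends. Sall4, a zinc finger partner of Pou5f1, had 1744, 1528, 1483, 1559 and 1829. Tdgf1 (Cripto), the Nodal co-receptor, had 3652, 3074, 3107, 2702 and 3471. These 3 genes stayed near their first level throughout. Sox2, the DNA-binding partner of Pou5f1, did not: it went 2582, 2422, 1906, 1508 and 909, a difference of -1.49, and its fall with day passed the test (slope -0.41 ± 0.05 log2 per day (SE), limma adjusted p = 0.0057). That test, here and below, includes both arrays of the comparison and is not separate support for a difference between them. Nanog was alike at the ends but not between them, with signals of 1629.6, 914, 828, 826 and 1887. The 3 arrays between lay near 50% of the level of either end, and Nanog was at 306 on D3.5 Dox-. Nanog has 1 probe set past the filter, so no second probe set bears on this course.

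The lost genes of general pluripotency included neighbours in function. Dppa2, a chromatin protein, had signals of 2558, 2332, 1120.1, 442 and 49.2. Its partner Dppa4 had 1489, 1702, 983, 545 and 95.2. Both passed 50% of their log2 difference only on D3.5 Dox+. Dppa5a, an RNA-binding protein, was at 5116 and 1349, and Utf1, a chromatin factor, at 590.4 and 194. Pim2, a serine/threonine kinase, was the one member that was higher, at 40.7, 202, 1276, 1528 and 1253. Of the 26 tested members, 11 fell and 2 rose with day by limma (adjusted p under 0.05), where 8.69% of the 8716 tested genes fell and 11.4% rose.

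**Figure D2:**
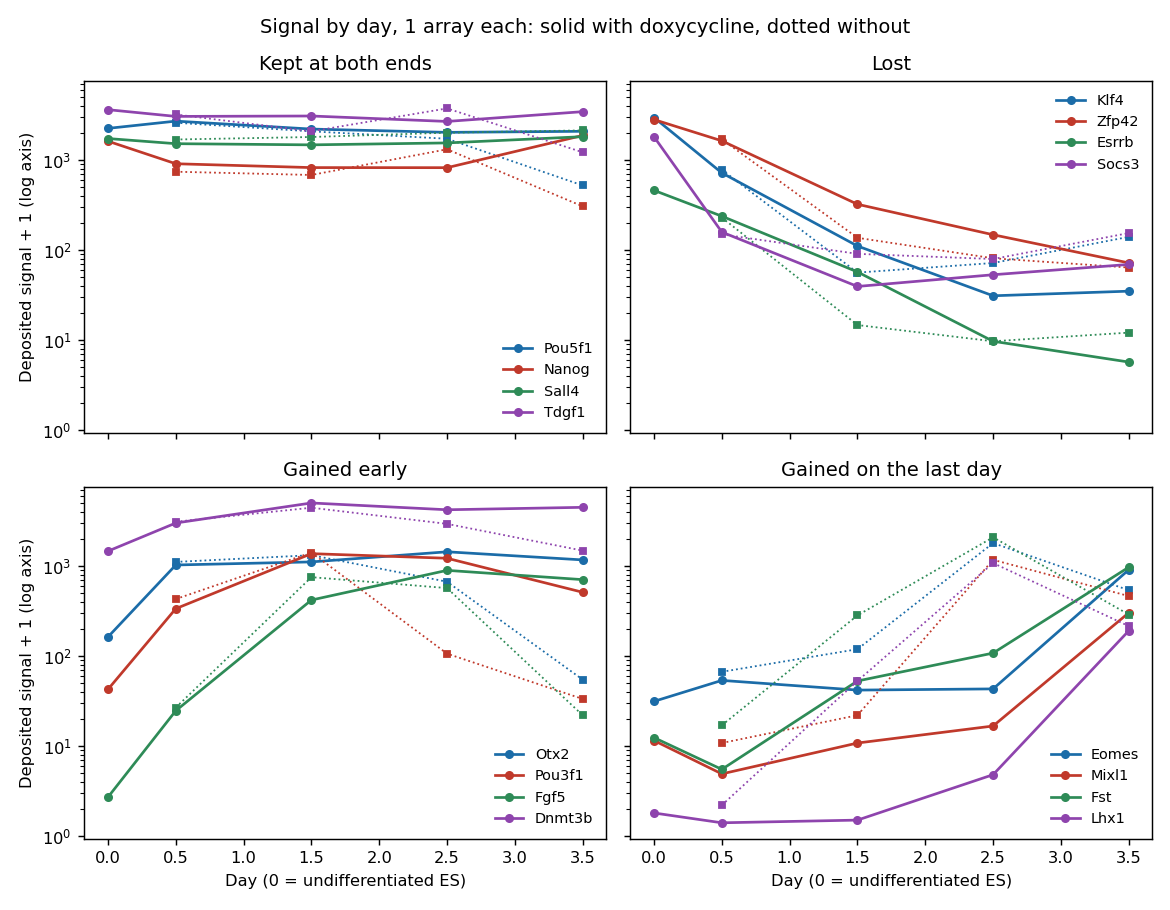
Deposited signal plus 1 (log axis) against day for 16 genes in 4 panels, 1 array per point, solid lines with doxycycline from the undifferentiated array (day 0) on and dotted lines without it. Pou5f1, Sall4 and Tdgf1 stay level and Nanog dips and returns, naive genes drop from the first array on, Otx2, Pou3f1, Fgf5 and Dnmt3b are high by D1.5, and Eomes, Mixl1, Fst and Lhx1 reach their highest Dox+ signal on D3.5.

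The naive regulators had the median furthest from 0 of the 38 lists. Of 19 with a probe set, 17 were at least 2-fold lower, none was higher and the median was -3.75. The remaining members, Dppa3 and Pecam1, did not pass the signal filter, with 15.4 and 14.4 for Dppa3 and 22.2 and 4.9 for Pecam1. Klf4, one of the reprogramming factors, went 2988, 723, 110.3, 30.1 and 34.0. Its relative Klf2 had 552, 205, 171, 28.4 and 19.1, and Klf5, another, 519, 150.4, 51.7, 24.7 and 30.8. All 3 Klf genes were lower on each array through D2.5. Esrrb, an orphan nuclear receptor that stands in for Nanog in self-renewal, went 462, 238, 56.3, 8.7 and 4.7, and Nr5a2 and Nr0b1, other nuclear receptors, were at 399.7 and 804 at first and 7.1 and 14.1 at the end. Each of these genes was far below its starting signal by D1.5 or D2.5, and a second, dimmer Esrrb probe set gave a smaller difference (-2.58 against -4.53).

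The naive regulators were not all lost at the same time. Such a spread is not particular to this list. Of all 553 lower genes, 17.9% had passed 50% of their final difference by D0.5 Dox+. Another 51.7% did so by D1.5, 25.0% by D2.5 and 5.4% with the last array. Of the 17 naive regulators, 12 had passed 50% of their final difference by D1.5 Dox+, 3 by D2.5 and 2 only on D3.5. The last 2 were Dppa5a and Fgf4, the ligand through which ES cells prepare themselves to leave the naive state, at 611, 836, 483, 241 and 49.7. Tbx3, a T-box factor of naive cells, went 812, 280.2, 74.8, 11.3 and 58.6, with 1061 on D3.5 Dox-, and Prdm14, a repressor of DNA methylation genes, went 234, 94.2, 28.1, 4.2 and 11.4. Tfcp2l1 went 417, 94.3, 27.9, 11.2 and 11.1. All 17 fell with day by limma (adjusted p from 0.00177 for Nr0b1 to 0.0455 for Tbx3), a test that includes both arrays of the comparison. These 17 passed the filter with a signal of at least 50 in undifferentiated cells and 4 of them had it on D3.5 Dox+, so the count is a description only.

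Many genes of the LIF receptor, STAT3 and its targets were also lower, though not all. Of 26 members with a probe set (20 tested), 16 were at least 2-fold lower and 1, Spry1, was higher, with a median of -1.72. Of the 20 tested, 8 fell with day by limma and 1 rose. Klf4, Klf5, Tfcp2l1 and Gbx2 are in this list and the naive one. Socs3, the feedback inhibitor that STAT3 induces, went 1824, 158, 38.5, 52.3 and 68.4. On D0.5 Dox+ it was already below 10% of its first signal, and its course, steep and then flat, did not pass the test for a steady fall (limma adjusted p = 0.114). Stat3 itself had signals of 140.0, 50.6, 34.1, 31.5 and 28.3. Lifr, the LIF receptor subunit, went 944, 806, 239.7, 92.6 and 85.3. Stat3 had lost most of its signal by D0.5 and Lifr by D1.5. Il6st (gp130), the other receptor subunit, at 154 and 81.9, and the kinase Jak1, at 87.0 and 81.8, were less than 2-fold apart. The receptor that binds LIF, the transcription factor and the feedback gene were thus lower, and Jak1 was alike.

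The upstream sequence of Socs3 is shown because this early-lost STAT3 target holds a STAT-type motif, 154 bases before its start. Its upstream 250 bases in RefSeq (GRCm38.p6, chr11:117969367-117969616, minus strand), with the motif TTCNNNGAA in capitals, are as follows:
Socs3: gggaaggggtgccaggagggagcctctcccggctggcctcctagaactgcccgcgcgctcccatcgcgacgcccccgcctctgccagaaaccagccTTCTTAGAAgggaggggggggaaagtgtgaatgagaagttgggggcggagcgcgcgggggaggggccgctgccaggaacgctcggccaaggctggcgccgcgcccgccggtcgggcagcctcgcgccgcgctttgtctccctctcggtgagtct
The motif was searched on both strands in 250 bases before each RefSeq start. It was found in 2 of the 16 members of the list that were tested and had a promoter there, in 6.49% of the 7170 tested genes with a promoter and in 8.13% of all 27025 genes in the table. A match is a run of letters and was not tested as a binding site.

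Among the 15 genes furthest down that also moved at least 0.5 the same way between D0.5 and D2.5 Dox+, arrays that the comparison does not use, were Klf4, Fbxo15, Zfp42, Nr0b1, Esrrb and Dppa2. The furthest of all was Morc1, a chromatin ATPase of the male germ line, at 1726, 946, 216, 33.0 and 5.1. It also had the smallest p for a steady fall (slope -1.89 ± 0.08 log2 per day (SE), limma adjusted p = 0.00177), in a test that includes both arrays by which it was picked. Inhbb, the βB subunit of activin and inhibin, went 836, 210.0, 12.1, 3.4 and 3.2. Mymx (myomixer), a small fusion protein of myoblasts, went 1374, 1409.5, 137, 25.6 and 12.8. Mylpf, a myosin light chain of fast muscle, went 898, 459, 40.0, 10.7 and 13.4. Both are muscle genes by name and were nonetheless bright in the undifferentiated array. Triml1, Myo1f, Ak7 and Emp1 complete the group, with differences of -5.13, -5.07, -4.64 and -4.47. Laptm5, a lysosomal membrane protein, was at 484 and 5.0 on its brightest probe set, but its other probe set was at 31.1 and 51.3, so its direction differs between probe sets.

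Genes of the formative and primed epiblast were more often higher than lower. Of 41 with a probe set (38 tested), 20 were at least 2-fold higher and 4 lower, with a median of 0.93. Fgf5 went 1.7, 23.7, 419.6, 899 and 708, the second largest difference among the higher genes (5.36; a dimmer probe set gave 2.18). Otx2, the homeodomain factor that drives the exit from the naive state, went 162, 1031, 1116, 1446 and 1175. Pou3f1 (Oct6), a POU factor of the early epiblast, went 41.7, 336, 1379, 1225 and 512. Otx2 had thus reached most of its final level by D0.5, whereas Pou3f1 was highest in the middle of the course and was lower again at its end. On D3.5 Dox-, Otx2, Pou3f1 and Fgf5 were at 53.8, 32.4 and 21.0, so these 3 epiblast genes were high at 3.5 days in the array with doxycycline.

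Of the 24 genes of this list that were 2-fold apart (20 higher and 4 lower), 12 had passed 50% of the difference by D0.5 Dox+. Over all tested genes, 15.2% of the higher and 17.9% of the lower ones had. Sox11, an HMG-box factor, went 158, 477, 920.4, 699 and 832, and its relative Sox4 was at 1162, 2029 and 2381 in undifferentiated cells, on D0.5 and on D3.5. Sall2, a zinc finger factor, went 32.0, 143, 231, 334 and 258. Lef1, a mediator of Wnt signals, went 82.6, 602, 758, 363 and 312. Each was above its first level by D0.5 Dox+. Cdh2 (N-cadherin), Epha1, an ephrin receptor, and Fzd2, a Wnt receptor, climbed at every step. Cdh2 had signals of 36.7, 73.2, 214, 249.8 and 499, Epha1 ended at 203 from 9.0, and Fzd2 at 241 from 1.8. The 4 lower members were Tcf15, a bHLH factor tied to the first steps out of the naive state, at 953, 1513, 467, 199.6 and 62.0, Etv4, an ETS factor induced by FGF, at 157 and 29.8, Utf1, and Ncam1, at 136 and 33.4. Of the 38 tested, 10 rose steadily and 4 fell by limma.

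The genes furthest up that also moved the same way between D0.5 and D2.5 Dox+ were led by Fndc3c1, a fibronectin type III domain protein, at 8.7, 29.9, 394, 679 and 1011. Next to Fgf5 stood Fst (follistatin), which traps activin, at 11.4, 4.5, 51.9, 107 and 973. Car4 and Car14, membrane-bound carbonic anhydrases, went 10.9, 93.2, 444, 786 and 756 and, for Car14, up by 4.25 on the log2 scale. Cxcl12, the ligand of the chemokine receptor Cxcr4, went 0.5, 34.9, 233, 278 and 441. Prom1 (CD133), a protein of membrane protrusions, went 16.1, 72.5, 387, 681 and 835. Of these, all but Fst had passed 50% of their log2 difference by D1.5, whereas Fst gained nearly all of its signal in the last day. Irs1, the adaptor of the insulin and IGF receptors, went 4.8, 6.6, 54.9, 171 and 456, one of the 3 smallest p for a steady rise (limma adjusted p = 0.00187). Slc39a8, a zinc and manganese importer, went 0.3, 18.1, 56.8, 137 and 264. Prickle1, a planar polarity protein, went 9.0, 6.3, 40.6, 119.9 and 466. Aplnr, Eomes and Cyp26a1 lay as far up, but moved by less than 0.5 between D0.5 and D2.5 Dox+ and are described below.

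Of the genes that set and remove DNA methylation, 7 of 23 with a probe set (20 tested) were at least 2-fold lower and 1 was higher, with a median of -0.48. The enzymes did not move as a group. Dnmt3b, which lays down new methylation, went 1470.4, 3024, 5051, 4245 and 4518, and a second probe set gave a larger difference (2.67). Dnmt3l, a cofactor with no activity of its own, went 718, 1134, 478, 138 and 41.9. Dnmt3a, the other enzyme that acts on unmethylated DNA, went 398, 1610.1, 1297, 780.5 and 365 on its brightest probe set, with -0.12 between the ends. All 5 Dnmt3a probe sets past the filter were highest on D0.5 Dox+, but they disagree on the ends, with differences from -0.37 to 1.31. The maintenance pair Dnmt1 and Uhrf1 were less than 2-fold apart, at 1072 and 846 and at 1277 and 908.

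Of the enzymes that oxidise methylated cytosine, Tet1 and Tet2 were lower, and Tet3 was near background at 6.6 and 6.2. Tet1 had 1726, 1472, 790.3, 553 and 421. Tet2 had 565, 469.7, 129.9, 59.7 and 44.2. Both fell with day (limma adjusted p = 0.00355 and 0.00528). Zfp57, which guards methylation at imprinted loci, was at 69.0 and 5.5, and Mbd2, a reader of methylated DNA, at 138 and 37.2. Among 37 genes of H3K9 methylation and Polycomb with a probe set (30 tested), 4 were lower, none was higher, and the median was -0.04. These 4 were Eed, a core subunit of Polycomb complex PRC2, at 2912, 1754, 1195, 1098 and 1093, its accessory partners Jarid2, at 1613 and 634, and Mtf2, at 2238 and 961, and the H3K9 demethylase Kdm3a, at 1205 and 568. Thus 3 genes of PRC2 were lower, while the list as a whole lay near the median of all genes.

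Germline genes known to be kept off in body cells by methylated promoters were in part detected in undifferentiated cells and dim on D3.5 Dox+. Of 42 with a probe set, 20 were at least 2-fold lower, none was higher and the median was -0.83. Only 19 passed the signal filter, all of them with a signal of at least 50 in undifferentiated cells and 3 with that signal on D3.5 Dox+. Members that were dim in undifferentiated cells did not pass, so the filter favours lower values and no count over these 19 is given as support. Stra8, the meiotic gatekeeper induced by retinoic acid, went 366, 251, 40.8, 14.2 and 2.3. Dazl, an RNA-binding protein of germ cells, went 273, 194, 112, 27.4 and 2.2. Sohlh2, a bHLH factor of the early germ line, went 293, 251, 175, 35.5 and 15.6. These 3 genes were lower on every array than on the one before. Hormad1, a protein of the meiotic chromosome axis, went 122, 48.4, 26.4, 9.4 and 0.4. Mael, which protects against transposons, went 116, 136, 216, 48.2 and 7.5. Dazl and Sohlh2 stayed over 100 until D1.5 Dox+, and Mael was at its highest there.

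Sycp3, a component of the synaptonemal complex, was the exception, at 663, 325, 988, 1246 and 647, alike at both ends. Ddx4 (Vasa), an RNA helicase of germ cells, was also less than 2-fold apart, at 132, 157, 168, 134 and 59.1. DNA methylation was not measured on these arrays.

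**Figure D3:**
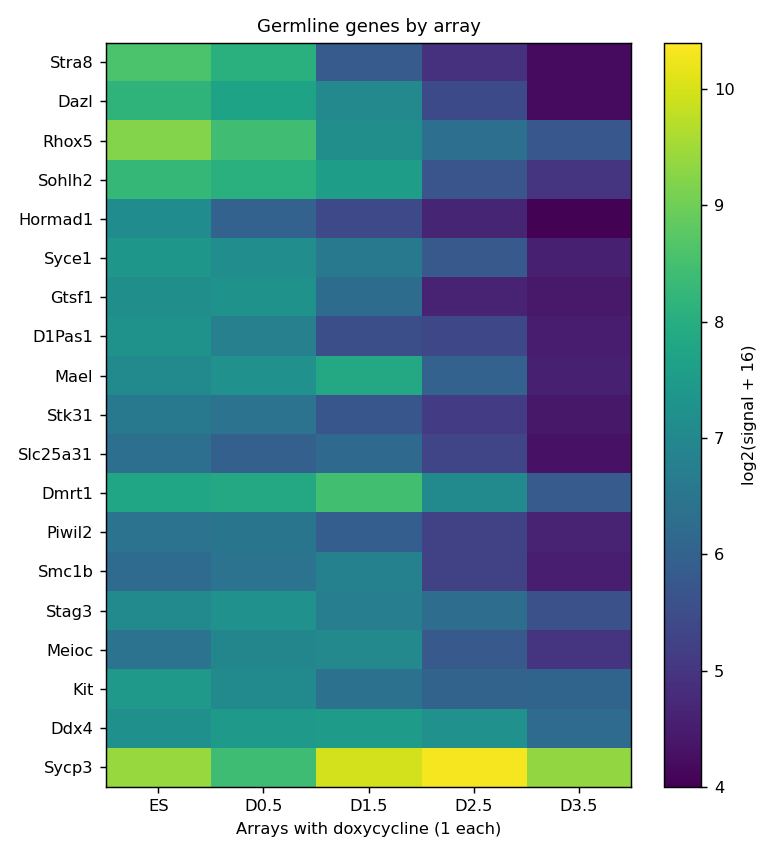
The 19 tested germline genes (rows, ordered by their difference) on the 5 arrays with doxycycline (columns), coloured by log2(signal + 16). Stra8 and Dazl are among the brightest in undifferentiated cells and at background on D3.5, Mael and Dmrt1 are brightest on D1.5, and Sycp3 stays bright on every array.

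The upstream sequences of 4 of these genes are shown because genes of this kind are known for promoters rich in CpG with an E-box and an E2F-type motif. The 250 bases before the RefSeq start (GRCm38.p6) are given 5′ to 3′ with CACGTG and GCGGGA, searched on both strands, in capitals (GCGGGA reads TCCCGC where it lies on the other strand). The windows are chr3:95559427-95559676 for Hormad1 (plus strand, the first of its starts in the table), chr1:166238745-166238994 for Mael (minus strand), chr17:50293621-50293870 for Dazl (minus strand) and chr10:88459337-88459586 for Sycp3 (plus strand).
Hormad1: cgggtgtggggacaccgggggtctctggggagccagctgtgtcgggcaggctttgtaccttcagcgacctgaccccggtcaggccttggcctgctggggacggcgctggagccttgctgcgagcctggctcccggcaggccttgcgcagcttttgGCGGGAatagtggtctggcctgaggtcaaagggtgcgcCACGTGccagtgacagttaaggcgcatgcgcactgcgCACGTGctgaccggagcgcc
Mael: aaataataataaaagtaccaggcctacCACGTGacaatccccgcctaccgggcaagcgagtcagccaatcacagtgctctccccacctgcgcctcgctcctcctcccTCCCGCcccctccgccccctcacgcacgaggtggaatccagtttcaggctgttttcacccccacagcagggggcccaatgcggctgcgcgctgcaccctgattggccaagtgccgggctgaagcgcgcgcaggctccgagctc
Dazl: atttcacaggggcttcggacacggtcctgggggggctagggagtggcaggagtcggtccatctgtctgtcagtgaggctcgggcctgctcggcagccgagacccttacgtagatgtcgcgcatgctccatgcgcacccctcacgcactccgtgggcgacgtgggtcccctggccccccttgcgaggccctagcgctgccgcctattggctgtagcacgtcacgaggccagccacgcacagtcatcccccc
Sycp3: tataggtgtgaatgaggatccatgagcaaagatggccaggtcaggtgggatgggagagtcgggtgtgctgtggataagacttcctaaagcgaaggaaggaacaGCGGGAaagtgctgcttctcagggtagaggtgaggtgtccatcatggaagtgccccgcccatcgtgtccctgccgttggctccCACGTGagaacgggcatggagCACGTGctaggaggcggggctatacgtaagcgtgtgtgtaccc
Hormad1 and Mael hold both motifs and Dazl holds neither, with 19, 18 and 20 CpG in the window, and all 3 genes were lower. Sycp3, which was alike at both ends, holds both motifs as well, with 12 CpG. Ddx4, just short of the 2-fold line (-0.975), holds both over its promoters in the table, with up to 31 CpG. Stra8 and Rhox5, which were lower, hold neither, with up to 5 and 4 CpG. Neither the motifs nor the CpG count thus set Sycp3 apart from the lower genes. Over any promoter of a gene in the table, 7 of the 17 tested germline genes with a promoter (41.2%) held CACGTG and 8 (47.1%) GCGGGA. The shares were 10.7% and 36.7% over the tested genes and 6.86% and 18.8% over all genes in the table. The median count of CpG was 18 for the germline genes and 18 for the tested genes. These are descriptions of letters, with no test and no measure of binding.

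Many genes of the primitive streak and nascent mesoderm were high on D3.5 Dox+. Of 38 with a probe set (27 tested), 19 were at least 2-fold higher and 3 lower, with a median of 1.17. Eomes, the T-box factor at the head of mesoderm and endoderm formation, went 30.4, 52.7, 40.9, 42.2 and 911, and a second probe set gave a difference of 4.13. Mixl1, a homeobox gene of the streak, went 10.5, 3.9, 9.8, 15.7 and 302. Mesp1, a bHLH factor of the first mesoderm, was at 14.6 on D2.5 Dox+ and 253 at the end, and Lhx1, a LIM homeobox factor of anterior streak and mesendoderm, at 3.8 and 190.1. All 4 were at 52.7 or below through D2.5 Dox+ and far above it on D3.5. Evx1, a homeobox gene of the posterior streak, was at 6.6 on D2.5 Dox+ and 149.7 a day later. Sp5 and Sp8, zinc finger factors, were at 6.6 and 25.8 and then 210.5 and 223 over the same day.

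The last day held most of this. Over all tested genes, 115 (1.32%) were at least 2-fold higher on D3.5 Dox+ than on D2.5 Dox+ and 67 (0.769%) lower. The streak list gave 19 of the 115, and of its 21 tested members 2-fold apart from undifferentiated cells 17 had passed 50% of that difference only on D3.5. Fgf8, a growth factor of the streak, was at 0.4, 55.1 and 379.7 in undifferentiated cells and on the last 2 arrays, and Cyp26a1, which breaks down retinoic acid, went 0.6, 8.8, 14.7, 10.1 and 299. Amot, a scaffold of the Hippo pathway, was different in rising step by step, at 38.6, 47.3, 149.9, 288 and 809 (limma adjusted p = 0.00187). Foxa2, of anterior streak and endoderm, was at 14.9 and 78.6, and Cdx2, a posterior factor, at 5.2 and 42.0. Without doxycycline Eomes was at 65.9, 118, 1808 and 540.3 over the 4 arrays in order of day. Mixl1 was at 9.8, 21.0, 1177 and 465. Lhx1 was at 1.2, 52.0, 1083 and 215. On those arrays the peak came on D2.5. The 3 lower members were Fgf4, Gdf3, a TGF-β ligand of pluripotent cells at 1129 and 253, and Hhex, at 72.5 and 25.8.

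**Figure D4:**
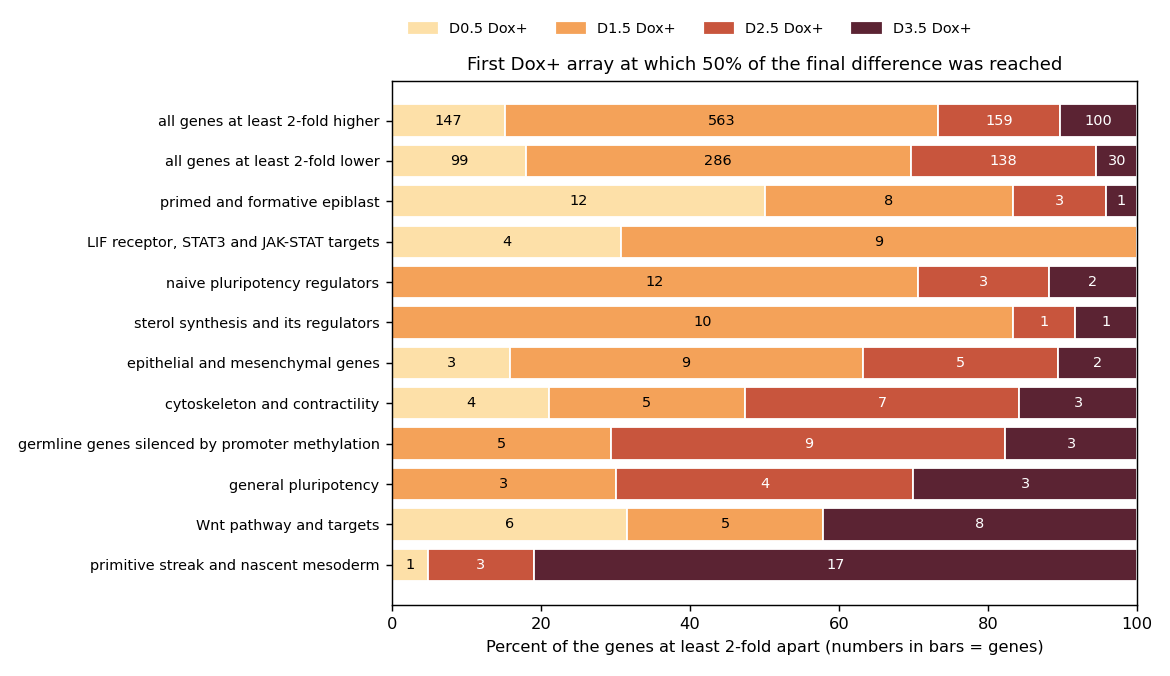
Genes at least 2-fold apart between D3.5 Dox+ and undifferentiated cells, all tested genes and 10 lists, split by the first array with doxycycline at which 50% of the final difference was reached (percent on the x axis, number of genes in the bars). D1.5 holds the most genes overall (563 of 969 higher and 286 of 553 lower), the epiblast list leans to D0.5 and the streak list to D3.5.

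Over all tested genes, 147 of the 969 higher genes (15.2%) had passed 50% of the final difference by D0.5 Dox+, 563 (58.1%) by D1.5, 159 (16.4%) by D2.5 and 100 (10.3%) on D3.5. For the 553 lower genes the numbers were 99 (17.9%), 286 (51.7%), 138 (25.0%) and 30 (5.4%). The difference between D2.5 and D0.5 Dox+, which shares no array with the comparison, had the same sign for 926 of the 969 and 537 of the 553. It was at least 2-fold the same way for 464 and 305 of them and at least 2-fold the other way for 1 and 2. Across the 8716 genes these differences had a Pearson r of 0.82 and a Spearman rho of 0.75. This is a description across genes, which are not independent, of 4 arrays of 1 course. The same shares over all 8716 tested genes were not counted. D0.5 and D2.5 lie between the compared arrays on that course, so the counts are not separate support.

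Signalling genes were read by role. In the Nodal and activin pathway, 5 of 21 with a probe set (20 tested) were at least 2-fold higher and 2 lower, with a median of 0.60. Nodal itself had signals of 618, 400.1, 549, 802 and 959.6. Its inhibitor Lefty1 went 404, 391, 1007, 1278 and 829.5, and the trap Fst is given above. Nodal thus dipped on D0.5 and was highest at the end, and Lefty1 was highest on D2.5. The receptor Acvr2b was at 136 and 407, and Skil, a repressor of SMAD targets, at 795 and 2106. The ligand subunit Inhbb and the ligand Gdf3 were the lower members. Ligand genes therefore went both ways, and Nodal differed by 0.62, just past the 0.60 within which 99% of genes lay on the D0.5 pair.

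Wnt genes were higher more often than lower: 17 of 40 with a probe set (29 tested) were at least 2-fold higher and 3 lower, with a median of 0.65. The receptors Fzd2 and Fzd7 were at 1.8 and 241 and at 380.0 and 1313, and the co-receptor Ror1 at 3.4 and 93.8. The secreted antagonists Dkk1, Frzb and Sfrp2 were at 25.3 and 103, 5.5 and 103, and 108 and 342. A dimmer Dkk1 probe set gave a difference of 0.13 against 1.52, so its rise is not seen on both. Axin2, the feedback target read as a sign of canonical Wnt signals, went 31.4, 32.7, 19.4, 31.8 and 130.4. The named receptors had passed 50% of their difference by D1.5. Axin2, Dkk1, Frzb and the ligands Wnt5a (from 0.6 to 49.6 over the last day) and Wnt5b (from 14.2 to 92.2) passed it only on D3.5. One receptor was lower, Fzd5, at 887, 356, 186, 178 and 138.

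For FGF ligands and the feedback genes of ERK, the kinase downstream of FGF receptors, 6 of 31 (23 tested) were higher and 5 lower, with a median of -0.30. Ligands went both ways: Fgf4 was lower, and Fgf5, Fgf8 and Fgf15 (at 28.3 and 125) were higher. The feedback inhibitors split as well. Spry4 went 458, 317, 149.9, 131 and 67.5, whereas Spry1 was at 50.3 and 137 and Il17rd (Sef) at 225 and 758. In the BMP pathway 9 of 28 (19 tested) were higher and 1 lower, with a median of 0.43. The ligand Bmp4 was the lower one, at 312, 60.5, 19.7, 13.7 and 27.9, while the targets Id3, Msx1 and Msx2 were at 119.7, 14.3 and 9.2 and then 271, 54.3 and 41.9, and Smad6, an inhibitor induced by BMP, at 22.0 and 91.1.

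Epithelial genes and the cytoskeleton were among the lists most often higher. Of 39 epithelial and mesenchymal genes with a probe set (29 tested), 17 were at least 2-fold higher and 4 lower, with a median of 0.73, and of 39 cytoskeletal genes (32 tested) 19 were higher and 2 lower, with a median of 0.99. Krt8, a keratin of simple epithelia, went 26.7, 24.3, 86.5, 265 and 545. Krt18, its partner in the filament, went 30.3, 43.5, 261, 762 and 859.8. Both were several times above their first signal by D1.5. Cldn7, a claudin of tight junctions, went 13.9, 21.2, 197, 820.0 and 676, and Cldn6 was up by 2.81 on the log2 scale. Crb3, an apical polarity protein, went 8.8, 10.7, 63.8, 224 and 225. Esrp1, the splicing factor of epithelial cells, went 47.7, 85.5, 397, 651 and 626. All of these genes were below 50 in undifferentiated cells. Cdh1 (E-cadherin) went 1334, 1542, 2171, 2560.1 and 2007 and was less than 2-fold apart, Cdh2 was higher as given above, and Cdh11, a cadherin of mesenchyme, was at 1.3 and 186, a difference of 3.54 (1.19 on a dimmer probe set). Of the tested repressors of epithelial genes, Zeb1 was lower, at 209 and 25.5, while Zeb2 (a difference of 0.92) and Snai2 (-0.705) were less than 2-fold apart. Vim (vimentin) was lower, at 2810.5, 1158, 1084, 876 and 1359.

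Tpm1 (tropomyosin) had the smallest p for a steady rise (slope 0.84 ± 0.04 log2 per day (SE), limma adjusted p = 0.00177), with signals of 114, 145, 278, 495 and 963. Tagln, an actin-binding protein of smooth muscle, went 8.0, 16.9, 24.0, 146 and 534, and Acta2, smooth muscle actin, was at 42.7 and 345. Ccn1, a matricellular target of YAP and serum response factor, went 17.1, 21.4, 16.1, 130.4 and 401. These 4 genes were at their highest Dox+ signal on D3.5. Of the 32 tested cytoskeletal genes, 16 rose and 1 fell with day by limma. In the matrix and adhesion list the members went both ways, with 10 of 40 (29 tested) higher and 8 lower and a median of 0.24. The basement membrane genes Nid1 and Lama1 and the adhesion molecule Icam1 were lower, at 652 and 33.0, 136 and 10.1, and 490.2 and 18.7, while the surface protein Cd24a was higher, at 169 and 1875.

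**Figure D5:**
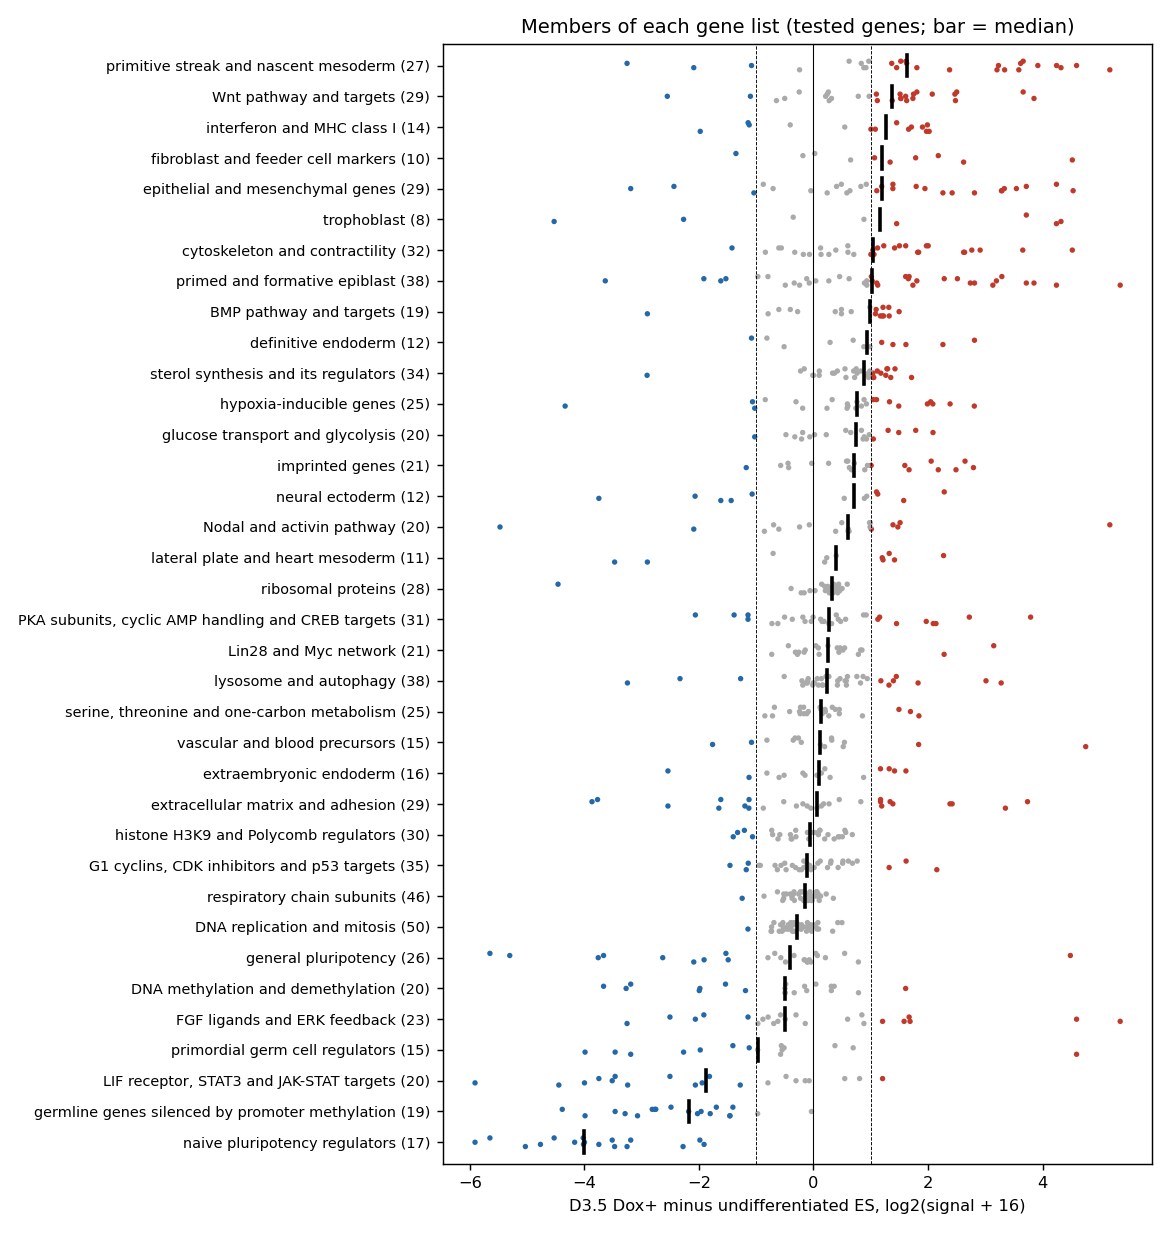
Difference between D3.5 Dox+ and undifferentiated cells on the log2(signal + 16) scale for the tested members of each list with at least 8 of them (number in brackets), 1 point per gene, black bar at the median and dashed lines at 2-fold. The tested germline genes and naive regulators all had a signal of at least 50 in undifferentiated cells, so the filter favours a place on the left. The germline list lies there (its median over all 42 with a probe set is -0.83). Naive and LIF lists also lie to the left, streak, Wnt, epithelial and cytoskeletal lists to the right, and respiratory chain and replication genes crowd near 0, as do ribosomal genes apart from Rpl39l. The filter favours the right for streak, Wnt and epithelial lists. Of their members, 6, 16 and 14 had a signal of at least 50 in undifferentiated cells and 22, 25 and 25 on D3.5 Dox+. Their medians over all with a probe set are 1.17, 0.65 and 0.73.

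Among metabolic genes, a part of those of sterol synthesis and a few of glycolysis were higher on D3.5 Dox+. Of 34 sterol and fatty acid genes with a probe set, all tested, 11 were at least 2-fold higher and 1 lower, with a median of 0.89, and 19 of the 34 rose with day by limma while 1 fell. Hmgcs1, at the start of sterol synthesis, went 1762, 1623, 3007, 3530.1 and 4513, and Fads2 and Scd1, fatty acid desaturases, were at 88.6 and 327 and at 239.9 and 670.2. Abca1, which exports cholesterol, was the member that was lower, at 182 and 30.5 by D2.5, with a difference of -2.90 at the end. For glycolysis, 5 of 22 (20 tested) were higher and 1 lower, with a median of 0.73, and 3 of the 20 tested rose with day by limma, where 11.4% of all tested genes did. Tpi1, triosephosphate isomerase, went 868, 1975, 3229, 3223 and 3029, and Aldoc, an aldolase, was at 31.2 and 185.

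Genes induced in low oxygen gave 10 higher and 3 lower of 28 (25 tested), with a median of 0.75. Bnip3, a mitochondrial autophagy receptor, went 250.2, 1288, 2599.7, 2272 and 1848. Ddit4, an inhibitor of mTOR, went 169.9, 564, 2256, 2311 and 955. Both peaked in the middle of the course. Epas1 (HIF-2α), a transcription factor of the same pathway, went the other way, at 1284, 1420.0, 417, 167 and 48.4. Of 46 respiratory chain subunits, all tested, none was higher and 1, Cox7a1, was lower (93.0 and 30.0), with a median of -0.14. Of 41 lysosomal and autophagy genes (38 tested) 7 were higher and 4 lower, with a median of 0.22. The Rag GTPase Rragd was at 129.8, 277, 1419.7, 1629.9 and 1397. The lysosomal regulator Mitf was at 266 and 13.7. Phgdh, the first enzyme of serine synthesis, was at 528 and 1744.

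Growth machinery was nearly level. Of 50 replication and mitosis genes, all tested, none was at least 2-fold higher and 1, Tk1, was lower (347 and 148), with a median of -0.29. Of 30 ribosomal protein genes (28 tested) none was higher and 1 was lower. Their median, 0.33 over the tested members, was 0.02 after quantile normalization. The lower one was Rpl39l, a paralog used in the male germ line, at 1102, 1068, 869, 303 and 34.8. It passed 50% of its difference only on D3.5. Ccnd3, a D-type cyclin, was at 349.9 and 117, and the cell death gene Pmaip1 (Noxa) at 161 and 526. Mycl and Hmga2, of the Lin28 and Myc network, were at 21.6 and 317 and at 144 and 759.8, and Lin28a at 309 and 544.

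Of 32 interferon and MHC class I genes with a probe set (14 tested), 11 were at least 2-fold higher and 5 lower, with a median of 0.29. B2m, the light chain of MHC class I, went 79.7, 85.9, 207, 297 and 364. The heavy chain H2-K1 went 91.6, 163, 255, 264 and 420.4. Both were higher on each array than on the one before. H2 genes are close relatives whose probe sets may share transcripts. Ifitm1, Ifitm2 and Ifitm3, membrane proteins first described as interferon targets and as germ cell markers, were at 757, 825 and 904 and then 339, 366 and 218. Of 35 imprinted genes (21 tested), 8 were higher and 1 lower, with a median of 0.54. Peg3, a zinc finger protein, went 229.9, 275, 356, 370.4 and 1688, and Ndn (necdin) and Magel2, neighbours in 1 imprinted cluster, were at 84.5 and 402 for Ndn and up by 2.49 on the log2 scale for Magel2. Cdkn1c, the imprinted cell cycle inhibitor, was the lower one, at 167 and 64.9.

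Because the study turns on PKA, its subunits and the handling of cyclic AMP were read too. Of 47 genes with a probe set (31 tested), 8 were at least 2-fold higher and 4 lower, with a median of 0.12. The catalytic subunit Prkaca went 511, 467, 544, 538 and 618, a difference of 0.27, though a probe set for the mouse gene need not detect the transgene. The cyclase Adcy6 was at 8.9 and 148, the phosphodiesterases Pde3b and Pde4b were at 110.3 and 522 and at 2.6 and 56.8, and Pkia, the inhibitor peptide of the kinase, at 5.7 and 79.6. Genes that make and genes that break down cyclic AMP were thus both among the higher ones. Kcnk1, a potassium channel, went 48.2, 131, 783, 1044 and 872. The immediate early genes Fos, at 239 and 45.0, and Ier2, with a difference of -1.14, were lower. The regulators of primordial germ cells gave 1 higher (Fgf8) and 7 lower of 19 (15 tested), with Tfap2c at 263, 34.9, 10.7, 9.9 and 41.9.

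Markers of other cells were looked for because a culture in serum can hold several. Of 27 fibroblast and feeder markers with a probe set (10 tested), 6 were higher and 1 lower, and their summed signal was 1663 in undifferentiated cells and 2537 on D3.5 Dox+, and 1220 to 1703 on the Dox+ arrays between. The defining collagens were at background, with Col1a1 at 1.4 and 7.3 and Col3a1 at 2.9 and 6.1. The higher members were Tagln and Acta2, given above with the cytoskeleton, Dcn, Col1a2, Col5a2 and Pdgfrb. Their part in the cytoskeletal differences was not tested. For extraembryonic endoderm 4 of 27 (16 tested) were higher and 3 lower, with summed signals of 2409 and 2715. The higher members were Foxa2 (a difference of 1.61), Pdgfra (1.42), Bmp2 (1.32) and Lamb1 (1.17). The defining markers Gata4 and Afp were at 6.5 and 3.6 on D3.5 Dox+. Sox17 was at 27.1 and 14.2 and Gata6 at 45.0 and 58.6.

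Neural ectoderm genes gave 4 higher and 5 lower of 33 (12 tested), with summed signals of 1763 and 2550. The higher members were Sox11 (a difference of 2.28), Nes (1.57), Sox3 (1.12) and Map2 (1.10). Sox1, a factor of the neural plate, was at 96.4, 158, 114, 71.2 and 25.5 and Pax6, of neural progenitors, at 21.9 and 15.3. For lateral plate and heart mesoderm 5 of 27 (11 tested) were higher and Tbx3 and Bmp4 lower. The higher members were Meis2 (a difference of 2.27), Pdgfra (1.42), Bmp2 (1.32), Msx1 (1.21) and Msx2 (1.20). The summed signal was 1354 in undifferentiated cells and 705 on D3.5 Dox+, against 9276 on D3.5 Dox-. Tbx3 and Bmp4, whose signals are given above, made up most of the sum in undifferentiated cells. The lower sum on D3.5 Dox+ is thus not a fall of the list as a whole. Vascular and blood genes gave 2 higher and 4 lower of 28 (15 tested), with summed signals of 651 and 922, against 4340.0 on D3.5 Dox-. Aplnr, the apelin receptor, went 0.1, 7.2, 1.0, 1.2 and 418, but a second, dimmer probe set was at 7.6 and 28.4, and Kdr was at 16.4 and 21.1. For definitive endoderm 6 of 21 (12 tested) were higher and 2 lower, with summed signals of 1898 and 3839, against 3764 on D3.5 Dox-. The tested higher members were Cldn6 (a difference of 2.81), Krt19 (2.26), Foxa2 (1.61), Dsp (1.39) and Epcam (1.19). All but Foxa2 are also in the epithelial and mesenchymal list. Hhex was lower (-1.08), and Sox17 differed by -0.51. Of the trophoblast list 4 of 21 (8 tested) were higher and 2 lower, the higher ones being Eomes, Krt8, Krt18 and Cdx2, while Elf5, a defining marker, was at 6.0 and 3.3. Of 27 Hox and Cdx genes 1, Cdx2, was higher, and none of the 8 genes of the 2-cell-like list with a probe set passed the filter.

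Some genes were alike at both ends and not between them, as Dnmt3a shows. Nanog dipped too, but by just under 2-fold below its undifferentiated signal, so it is not among the genes counted here. The arrays of D0.5, D1.5 and D2.5 Dox+ held 28 genes that were within 0.5 of each other at the ends and at least 2-fold below both ends on at least 1 array between, and 29 genes at least 2-fold above both. These genes are named after their values were seen. Fn1 (fibronectin) went 888, 982, 638, 302 and 859.7. Gata6, a zinc finger factor of endoderm, went 45.0, 15.3, 9.8, 5.6 and 58.6. Sparc, a matrix glycoprotein, went 692, 482, 274, 429 and 607. Their lowest points lay on D1.5 or D2.5 Dox+. Among those higher between was Wt1, a zinc finger factor, at 20.1, 95.0, 195, 116 and 29.7. Grb10, an adaptor of the insulin receptor, went 35.3, 101, 253, 142 and 45.6. Ptch1, the Hedgehog receptor, went 489.9, 840.4, 1365, 846 and 449, with its peak on D1.5 as for Wt1 and Grb10. Slc23a1, a vitamin C transporter, went 14.5, 28.7, 163, 71.6 and 17.3. A comparison of the ends alone leaves out all 57 of these.

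The test over the course used all 5 arrays with doxycycline, with undifferentiated cells as day 0, and left 3 residual degrees of freedom. Both arrays of the comparison are among these 5, so its calls and the counts per list are not separate support. By limma at an adjusted p under 0.05, 996 genes rose steadily (11.4%) and 757 fell (8.69%). Leaving out 1 array moved these counts. Without the undifferentiated array they were 247 and 244, without D0.5 Dox+ 241 and 196, without D2.5 Dox+ 273 and 222, without D1.5 Dox+ 1118 and 840, and without D3.5 Dox+ 938 and 618. The genes with the smallest p were Tpm1, Amot and Irs1 among the rising and Morc1, Nr0b1 and Accsl (at 199, 129.9, 56.5, 19.5 and 0.8) among the falling. Arrays of 1 course may differ by handling as well as by day, and p-values measure only the spread around a line through these arrays.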

How the data were processed

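The authors deposited 1 table of intensity values, on a linear scale, for 45101 probe sets on 9 arrays labelled with biotin from total RNA. Per the submitters' processing notes the software was GCOS; no source used here gives its version, background step or detection calls. On every array the mean without the highest and lowest 2% of probe sets was 100, so no further normalization was applied. Probe sets were named by GEO's platform annotation, with symbols brought up to RefSeq GRCm38.p6 by gene ID: 34945 probe sets had 1 symbol, 932 had several and were left out, and 34741 were matched. The brightest probe set over 9 arrays stood for each of 18193 genes, of which 9010 had more than 1. Of the 1522 genes at least 2-fold apart, 496 had another probe set past the filter, all of 1 sign for 485 and at least 0.5 the other way for 4.

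Values are log2(signal + 16). The number of arrays, 1 per group, limits the precision, so the comparison of 2 arrays has no test. The slope with day over 5 arrays was fitted with limma 3.58.1 (R 4.3.3; lmFit, eBayes with a trend) and adjusted over all 8716 genes by Benjamini-Hochberg. On simulated data with the residual spread of this fit for 8716 genes, slopes of 1 and 0.5 log2 per day were recovered for 95.0% and 71.0% of 100 genes each, with 4 false calls. The simulated courses were straight, with independent noise and far fewer changed genes than were called here. These figures therefore do not give the error rate of the calls on the real arrays. Undifferentiated cells were set to day 0.

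The 38 gene lists and the genes described were chosen with earlier results of these data known. Genes named by rule are the 15 furthest each way that moved at least 0.5 the same way between D0.5 and D2.5 Dox+, the 4 largest of each list, a set always given (Nanog, Pou5f1, Sox2, Zfp42, Fgf5, Klf2, Klf4, Esrrb, Tbx3, Otx2, Pou3f1, Dnmt3a, Dnmt3b, Dnmt3l, Prdm14, Dppa3, Mixl1, Nodal, Cdh1, Prkaca) and the 3 of smallest p each way. Other genes are examples chosen after their values were seen. Alternatives were the pseudocount, quantile normalization, centring on the median, the mean over probe sets, the signal filter, the form of the fit and leaving out each array.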

Additional observations from a re-analysis of the deposited data

How the results depend on the processing

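The values are of 2 single arrays, and dim genes depend most on the pseudocount. With a pseudocount of 64 the count of genes at least 2-fold higher was 485 and that of lower genes 355 (969 and 553 with 16); with a pseudocount of 1 they were 1209 and 669, and under the other alternatives 654 to 1158 and 411 to 736. Quantile normalization gave 829 higher and 613 lower, median centring 884 and 605, which moves the split of calls toward lower genes. No list median and no named gene that was at least 2-fold from 0 changed sign under any alternative run. Below that, Dnmt3a went from -0.12 to 0.41 with the mean over probe sets, and the vascular list's median from 0.12 to -0.16 with quantile normalization.

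List medians over tested members moved in size. The naive median (-4.00) was -4.87 with a pseudocount of 1, -2.68 with 64, -2.86 with the mean over probe sets and -3.75 without the filter. The LIF median (-1.88) was -2.12, -1.35 and -1.18 under the first 3 of these. The germline median (-2.18) was -3.73 and -1.33 with pseudocounts of 1 and 64, -0.83 without the filter and -2.62 at a signal of 100 or more. The streak median (1.63) was 2.79 and 0.90, 1.34 with the mean over probe sets, 1.17 without the filter and 2.38 at a signal of 100 or more. The epiblast median (1.02) was 0.75 with a pseudocount of 64 and 0.81 with the mean over probe sets. Of 153 named genes, 99 and 121 moved by more than the spread of the D0.5 pair (SD 0.20) with pseudocounts of 1 and 64, 70 with the mean over probe sets, 2 with quantile normalization (the ribosomal Rplp2 and Rps2, to 0.09 and 0.18) and none with median centring.

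Leaving out each array in turn, the count of steadily rising genes ranged from 241 to 1118 and that of falling genes from 196 to 840. No paired analysis was possible because each group is 1 array and the labels give no replicate numbers.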
